A study of Rattus norvegicus with 16 samples.

Results

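Prg4, Cytl1, Aqp3, Cd55 and Abi3bp were followed per cell in rat intervertebral disc (IVD) cells. The 5 genes were selected on their measured levels in the disc cells of these same data, so their joint detection, their spread over the disc regions, the share of cells with Prg4 and their levels in injured against uninjured discs are given as a description, without tests. All 5 of the 5 were listed in all 16 libraries, among 14930 genes listed in any group.

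Prg4 encodes lubricin, the secreted mucin-like proteoglycan that lubricates articular cartilage and synovium and is laid down between the lamellae of the annulus fibrosus. Cytl1 encodes a small secreted cytokine-like protein of cartilage, Aqp3 a channel for water and glycerol, Cd55 the membrane-bound decay-accelerating factor that limits complement activation and marks synovial lining cells, and Abi3bp a secreted matrix protein. In articular joints, cells at the tissue surface express Prg4, while deeper chondrocytes express little of it.

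The libraries came from male Sprague-Dawley rats that were 8 weeks old at surgery, 4 rats studied 2 weeks and 4 other rats 8 weeks after it. In each rat 2 lumbar discs were stabbed once with a needle (LDP) and 2 uninjured lumbar discs of the same rat served as the control (CON), so the controls also came from operated animals. The stabbed discs were always the lower pair of lumbar levels studied and the controls the pair above, so injury and disc level cannot be told apart. The 2 discs of a kind were pooled into 1 single-cell library, giving 4 libraries for each condition and time. A level below is the mean over the IVD cells of a library of counts relative to the cell's total of unique molecular identifiers (UMIs), scaled as CPM.

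The submitters' annotation placed 127077 of 149272 cells in the IVD class, between 1313 and 14252 per library, and the median depth of these cells was 4226 to 9889 UMIs. The disc proteoglycan gene Acan averaged 1705 to 4107 CPM in IVD cells against 14.4 to 351 CPM in endothelial cells, and the disc markers Col2a1, Comp, Sox9 and Fmod were also above the endothelial level in each of the 12 libraries with endothelial cells. The endothelial receptor gene Flt1 stood at 1.19 to 36.1 CPM in IVD cells and 679.6 to 1352 CPM in endothelial cells. The pair of libraries that shared most cell barcodes, LDP rat 2 and LDP rat 3, had 75 in common, and no pair shared more than 0.720% of the smaller library.

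The bases before the transcription start are shown for the members of the pairs with the highest joint detection described below. Each run is the 250 bases upstream of the RefSeq start (GRCr8), written 5′ to 3′ on the strand of the gene, and capitals mark a match to TATAAA on either strand.
Prg4, chr13:65054226-65054475, minus strand: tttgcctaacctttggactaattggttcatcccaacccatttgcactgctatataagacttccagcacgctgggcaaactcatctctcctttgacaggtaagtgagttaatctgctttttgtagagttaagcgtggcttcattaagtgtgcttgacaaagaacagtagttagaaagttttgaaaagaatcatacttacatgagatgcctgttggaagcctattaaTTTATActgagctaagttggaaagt
Aqp3, chr5:61040684-61040933, minus strand: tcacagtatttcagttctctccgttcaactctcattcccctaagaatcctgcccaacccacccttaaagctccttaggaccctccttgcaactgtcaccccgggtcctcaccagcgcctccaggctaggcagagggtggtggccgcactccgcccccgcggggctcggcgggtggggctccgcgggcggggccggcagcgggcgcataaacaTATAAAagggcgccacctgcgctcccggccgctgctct
Abi3bp, chr11:57597990-57598239, minus strand: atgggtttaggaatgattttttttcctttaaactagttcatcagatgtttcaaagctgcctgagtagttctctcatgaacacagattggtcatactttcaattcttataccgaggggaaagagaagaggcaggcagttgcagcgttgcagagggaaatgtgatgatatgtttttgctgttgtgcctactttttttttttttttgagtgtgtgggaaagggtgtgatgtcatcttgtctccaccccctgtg
The match lay 25 bases before the start in Prg4 and 38 bases before it in Aqp3, and 12.9% of 33469 rat promoters of this length held one. TGANTCA (an AP-1 motif, in 6.34% of promoters) and GTAAACA (a FOXO motif, 3.21%) were in none of the 5 members' windows, and TGACG (part of the cAMP response element, 18.2%) was only in Cd55, at 2 places, with both strands searched and no overlaps between these motifs in the 5 windows. The 5 windows did not share a base composition, with 38.8% G or C in Prg4, 40.8% in Abi3bp, 56.4% in Cytl1, 64.4% in Cd55 and 65.2% in Aqp3 against a median of 51.2% over all promoters.

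Prg4 was widespread in disc cells, but much of its RNA sat in few of them. To compare shares of cells between libraries of unequal depth, each cell was thinned to 1000 UMIs, which left out 882 IVD cells. At that depth a Prg4 UMI was found in 52.1%, 58.9%, 72.5% and 49.5% of IVD cells of CON rats 1 to 4, and in 62.5%, 60.9%, 59.4% and 48.6% of those of the LDP discs of the same rats. At 8 weeks the shares were 48.8%, 34.5%, 59.4% and 58.2% in CON rats 5 to 8 and 57.8%, 45.1%, 61.5% and 64.6% in their LDP discs. The lowest share was that of CON rat 6 and the highest that of CON rat 3, and the CON and LDP values overlapped at both times. The share was higher in LDP in 2 of 4 rats at 2 weeks (mean difference -0.371 ± 9.69 percentage points, SD over rats) and in 4 of 4 rats at 8 weeks (7.00 ± 3.72 points), where 6.78% of the genes tested were higher in all 4. With all UMIs kept, the shares ran from 56.4% to 88.3%. The 10% of IVD cells with most Prg4 held between 39.6% and 73.9% of the thinned Prg4 UMIs of their library, with the highest value in CON rat 6, where fewest cells had any.

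**Figure D1:**
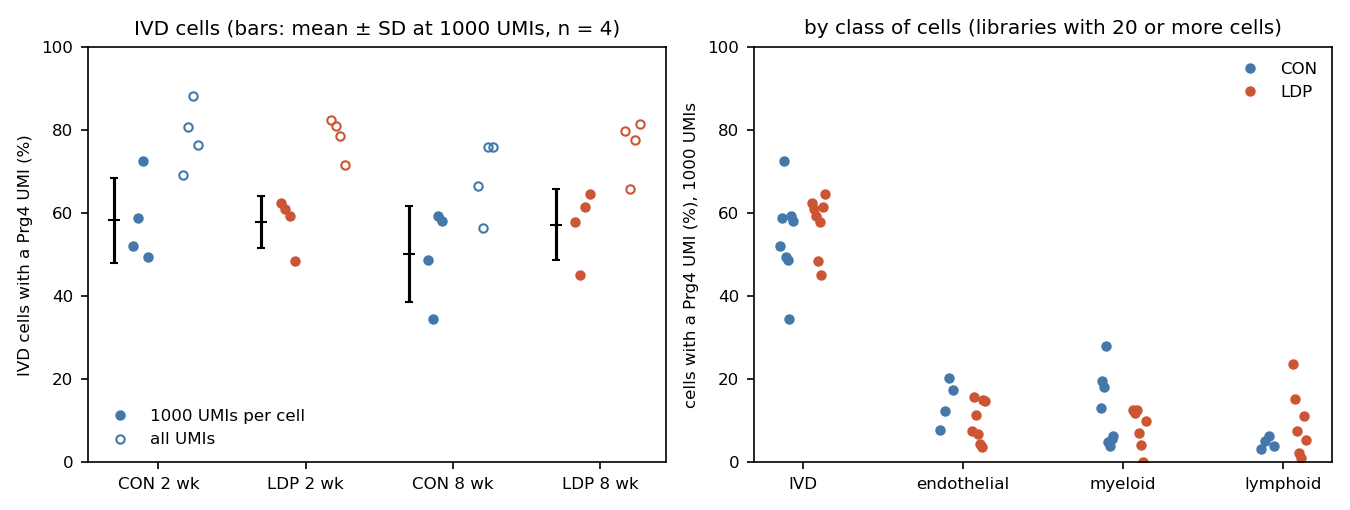
Left, percent of IVD cells with a Prg4 UMI in each of 16 libraries, thinned to 1000 UMIs per cell (filled, with mean ± SD, n = 4) or with all UMIs (open). Right, the same thinned share in IVD, endothelial, myeloid and lymphoid cells; IVD cells ranged from 34.5% to 72.5% and endothelial cells from 3.64% to 20.4%.

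The other cell classes gave a level of detection against which the IVD cells can be read. Whether it came from free RNA, doublets or the cells' own RNA was not tested. Thinned in the same way, 3.64% to 20.4% of endothelial cells had a Prg4 UMI (12 libraries, median depth 1685 to 5274 UMIs) and so had 1.07% to 23.8% of lymphoid cells, all below the IVD cells of any library. For Cytl1 the endothelial range was 5.16% to 20.8%, against 25.9% to 60.9% of IVD cells, and lymphoid cells reached 28.6%. Aqp3 was in 0% to 1.73% of endothelial, up to 2.86% of myeloid and 1.90% to 7.97% of IVD cells. Abi3bp was in 0% to 40.7% of endothelial cells and 54.9% to 89.8% of IVD cells. Within a library the IVD share of each of these 4 genes was above the endothelial share in 12 of 12 libraries, above the myeloid share in 15 of 15 and above the lymphoid share in 11 of 11. For Cd55 it was above the endothelial share in 12 of 12 but above the myeloid share in 5 of 15 libraries. Myeloid cells, which carry the Cd55 protein on their surface, had its RNA in up to 27.9% of cells (median over libraries 11.3%) against 3.48% to 13.5% of IVD cells and 0% to 4.41% of endothelial cells. Cells that the annotation left unnamed had Prg4 in 0.901% to 69.6%.

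In the 2-week libraries the annotation also divided the IVD cells into subclusters, which the study named after the inner core of the disc, the nucleus pulposus (NP), and after the inner (IAF) and outer (OAF) parts of the annulus fibrosus around it. The tables number them without names, and NP was taken as the deeper of the large pair in each condition. The study named the NP subcluster of its controls from marker genes. In LDP the choice by depth swapped the numbers that NP and IAF carry in CON, and no NP marker was compared between subclusters here. NP cells had a median of 6997 to 8544 UMIs in CON and 7894 to 10580.0 UMIs in LDP, against 2442 to 3789 and 4099.5 to 6403 UMIs in IAF cells. If that assignment were crossed in LDP, the NP and IAF values of LDP below would trade places, while OAF would not be touched.

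All 5 members were lowest in OAF cells in each of the 8 libraries. In CON discs Prg4 averaged 3192 ± 786 CPM among NP cells, 2831 ± 414 CPM among IAF cells and 465 ± 169.9 CPM among OAF cells (SD, n = 4), and in LDP discs 2807 ± 450.4, 3166 ± 409 and 349.9 ± 125 CPM. The OAF level was thus lower than the NP level by a log2 ratio of -2.82 ± 0.78 in CON and -3.08 ± 0.48 in LDP, with no library of the 8 above -1.84. The NP and IAF levels of Prg4 differed far less, with a log2 ratio of NP over IAF of 0.15 ± 0.17 in CON and -0.18 ± 0.14 in LDP.

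Cytl1 and Aqp3 were also far lower in OAF cells. In CON discs Cytl1 had 1348 ± 405 CPM among NP cells, 1186 ± 366 among IAF cells and 114 ± 55.5 among OAF cells, a log2 ratio of OAF over NP of -3.64 ± 0.46. Aqp3 averaged 35.9 ± 19.4, 30.5 ± 12.6 and 1.38 ± 0.405 CPM in the same order, a log2 ratio of -3.85 ± 0.84 on the log2(CPM + 1) scale, which understates a ratio to so low a level. In LDP discs the ratios were -3.63 ± 0.47 for Cytl1 and -3.88 ± 0.52 for Aqp3. The steps of both genes differed between CON and LDP by less than their SD.

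For Cd55 the OAF level was within reach of that of endothelial cells, as was that of Cytl1 and Aqp3, so these 3 ratios are not ranked. Whether the endothelial level is a background for OAF cells was not tested. Cd55 had 124 ± 20.7 CPM among NP cells, 126 ± 30.3 among IAF cells and 28.2 ± 12.2 among OAF cells of CON discs, a log2 ratio of OAF over NP of -2.20 ± 0.91. Abi3bp averaged 4502 ± 458, 4285 ± 502 and 1909 ± 121 CPM, a log2 ratio of -1.23 ± 0.18, and was the one member still found in most OAF cells, 69.8% ± 1.19 of them at 1000 UMIs. The thinned share of OAF cells with Prg4 was 12.9% to 23.6% in CON, and it was above the endothelial share of the same library in 4 of 4 CON and 4 of 4 LDP libraries. The mean Prg4 level of OAF cells in CON, 298 to 616 CPM, did not overlap that of endothelial cells, 90.6 to 269 CPM, while in LDP the ranges of 165 to 430.4 CPM and 71.0 to 195 CPM overlapped. The OAF share of Prg4 was below the myeloid share in CON rats 1, 2 and 4. It was above it in CON rat 3 and in each LDP library. CON rat 4 had only 25 myeloid cells. The mean Prg4 level of myeloid cells, 226 to 459 CPM in CON and 108 to 464 CPM in LDP, overlapped that of OAF cells. In CON, Prg4 in OAF cells was thus set apart from the endothelial but not from the myeloid level. For Cytl1 (3.18% to 13.6% of CON OAF cells), Cd55 (1.10% to 3.60%) and Aqp3 (mean 0.115%) the OAF share was above the endothelial share in 0, 1 and 2 of 4 CON libraries and in 1, 0 and 0 of 4 LDP libraries. These shares were read as not distinguishable from the endothelial level. The OAF share of Abi3bp was above the endothelial share in each of the 8 libraries.

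**Figure D2:**
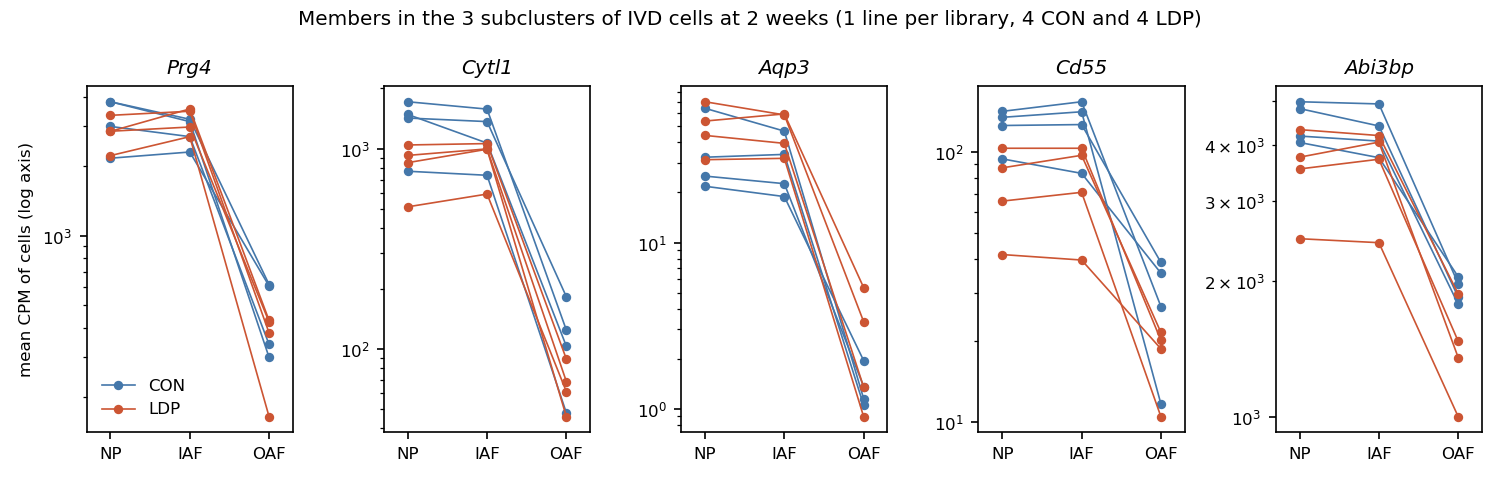
Mean CPM (log axis) of each member in NP, IAF and OAF cells at 2 weeks, 1 line per library (4 CON, 4 LDP). All 8 lines fall at OAF, while NP and IAF lie close together. The mean log2 ratio of OAF to NP was -2.82 in CON and -3.08 in LDP for Prg4, and -1.23 and -1.31 for Abi3bp. The OAF levels of Cytl1, Aqp3 and Cd55 were within reach of endothelial levels, and their ratios are not ranked. The OAF level of Prg4 overlapped that of myeloid cells.

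Within single IVD cells the members were found together more often than their separate shares would give. Joint detection was measured at 1000 UMIs as the log2 odds ratio, which is above 0 when a UMI of one gene is more frequent in cells that have the other. In the 16 libraries it ran from 1.12 to 2.36 for Prg4 and Abi3bp (median 1.56), from 0.90 to 2.13 for Prg4 and Cytl1 (median 1.24) and from 0.53 to 2.75 for Prg4 and Aqp3 (median 1.06). Prg4 with Cd55, the complement regulator, had a median of 0.84 and a range of 0.34 to 1.93. All 4 pairs with Prg4 were above 0 in 16 of 16 libraries.

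The 6 pairs without Prg4 were also mostly above 0. Aqp3 and Abi3bp had the highest median of all 10 pairs, 1.85 (range 0.92 to 2.72), followed among these by Cd55 and Abi3bp with 1.26, Cytl1 and Abi3bp with 1.07, Cytl1 and Aqp3 with 0.88, Aqp3 and Cd55 with 0.82 and Cytl1 and Cd55 with 0.68. Libraries below 0 occurred for Aqp3 and Cd55 (lowest -0.39) and for Cytl1 and Cd55 (lowest -0.08), 1 library each. Expressed as a ratio to the product of the separate shares, the excess was moderate, with a median of 1.22 for Prg4 and Cytl1 and 1.11 for Prg4 and Abi3bp, since Abi3bp was already in most cells. The points of a library share its depth and any free RNA, and cells of a library are not replicates.

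**Figure D3:**
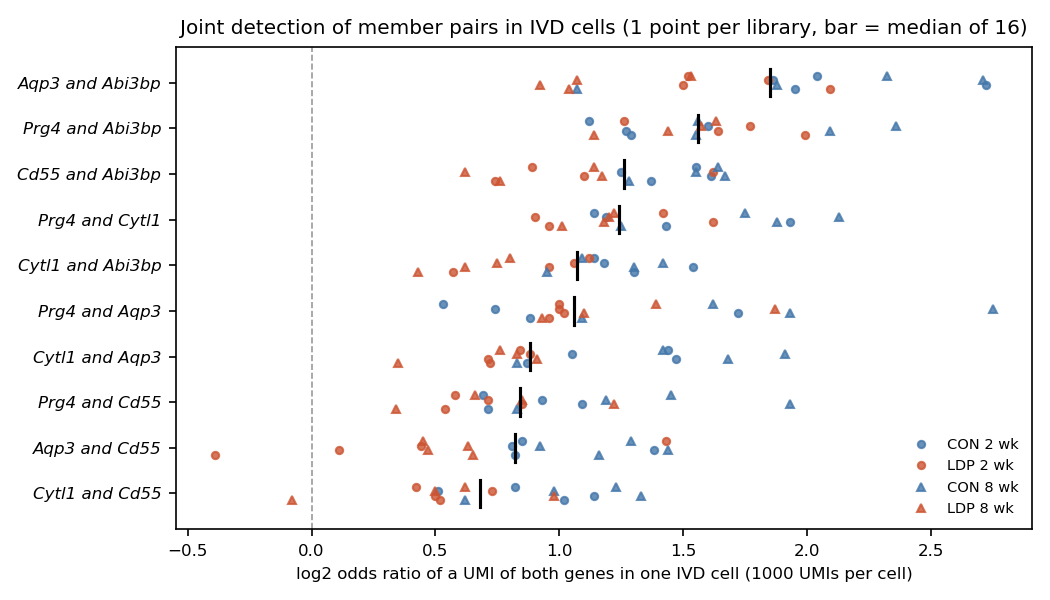
Log2 odds ratio of finding a UMI of both genes in one IVD cell at 1000 UMIs, for the 10 pairs of members (circles, 2 weeks; triangles, 8 weeks; 1 point per library, bar at the median of 16). All medians lie between 0.68 and 1.85, and 8 of 10 pairs lie above 0 in each library.

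Inside NP and IAF cells the joint detection of Prg4 with Cytl1 was smaller than over all IVD cells, while for Abi3bp this was less clear. Over the IVD cells of the 8 libraries at 2 weeks the median log2 odds ratio was 1.31 for Prg4 and Cytl1, 1.44 for Prg4 and Abi3bp, 0.98 for Prg4 and Aqp3 and 0.71 for Prg4 and Cd55. Within NP cells of the same libraries it was 0.90, 1.28, 0.58 and 0.69 in this order, and within IAF cells 0.99, 1.47, 0.73 and 0.46. All of these were above 0 in 8 of 8 libraries. The NP value was below the IVD value of its own library in 8 of 8 libraries for Cytl1, 6 for Abi3bp, 8 for Aqp3 and 7 for Cd55, and the IAF value in 8, 6, 7 and 7. In OAF cells Prg4 and Abi3bp gave -0.06 (range -1.49 to 0.33), with 2 of 8 libraries above 0. Prg4 and Cytl1 gave 0.79 there, with 7 of 8 libraries above 0 on 6 to 51 joint cells. Prg4 and Cd55 gave 0.55, with 8 of 8 above 0 on 1 to 17 joint cells. In LDP rat 1, with 1 joint cell, the ratio to the product of the shares was 0.981. Its log2 odds ratio of 0.41 was above 0 only through the 0.5 added to each count. In OAF cells the pairs with Aqp3 rested on 0 to 8 joint cells per library and were not read.

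A ranking of all genes by their likeness to Prg4 put the other members near its top. The measure was the log2 ratio of the mean thinned count in IVD cells with a Prg4 UMI over that in IVD cells without one, as the median of the 16 libraries, over the 6213 genes found in at least 1% of thinned IVD cells. Cytl1 ranked 5 with a ratio of 1.01 (0.64 to 1.53), Abi3bp 8 with 0.93 (0.69 to 1.65), Aqp3 12 with 0.88 (0.31 to 2.38) and Cd55 24 with 0.70 (0.24 to 1.94), of 6212 genes other than Prg4. All 4 were above 0 in 16 of 16 libraries, where the median gene stood at -0.09. Because the members were named for going together in these cells, the ranks describe the choice and are not evidence for it.

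The genes besides the members among the 15 most like Prg4 included matrix genes and genes of processing enzymes. Pcsk2 (1.30) and Pcsk5 (1.10) encode proprotein convertases. Sbsn (1.08) encodes suprabasin, Tekt1 (0.94) a tektin of cilia, Prss46 (0.94) a serine protease and Krt16 (0.83) a keratin. The matrix genes among them were Cilp (0.91), Fn1 (0.89) and Vcan (0.83), with the hyaluronan-binding Tnfaip6 (0.90) and the adipokine gene Adipoq (0.88). In 2-week NP and IAF cells alone, 10 of the 15 stayed among the first 15, led by Pcsk5 (1.08), while Tnfaip6, Cilp, Vcan, Tekt1 and Aqp3 ranked 16, 17, 18, 25 and 31, in a ranking added after seeing the data. Krt16 was the one with libraries below 0, 14 of 16 being above.

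**Figure D4:**
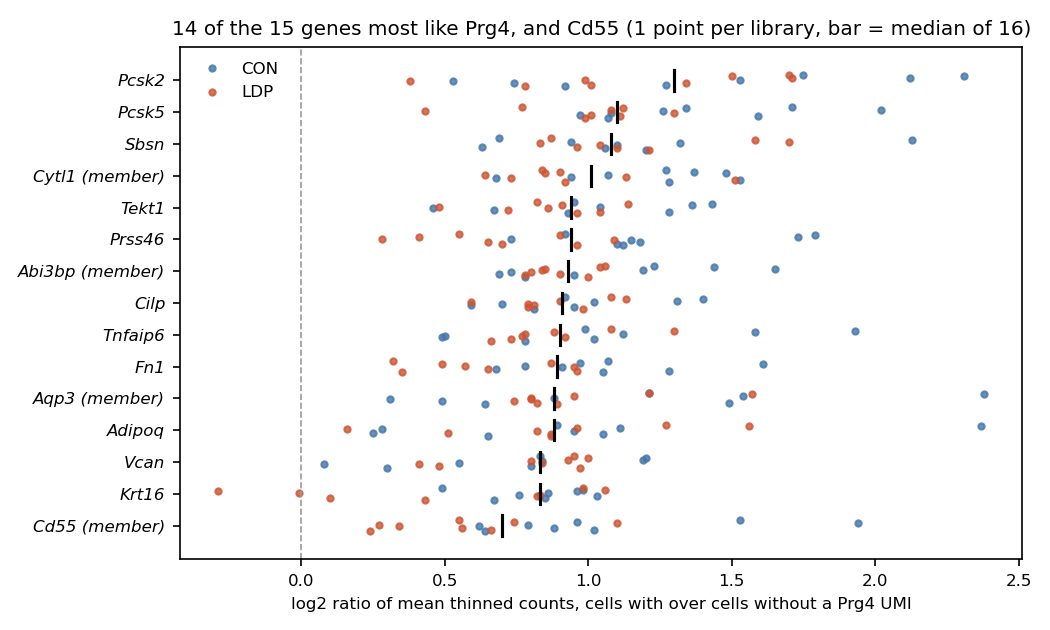
Log2 ratio of mean thinned counts in IVD cells with over IVD cells without a Prg4 UMI for 14 of the 15 genes most like Prg4 and for Cd55 (1 point per library, bar at the median of 16). Cytl1, Abi3bp and Aqp3 stand among the 15 with medians of 1.01, 0.93 and 0.88, and Pcsk2 is highest at 1.30.

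Several marker genes of the outer annulus, tendon and bone, named after their values were seen, stood at the other end. Lum was last of the 6212 with -2.35, and Col1a1 (-2.30), Myoc (-2.25) and Igfbp6 (-2.17) were within the last 4. The OAF marker Fibin was an exception, at rank 4943 with -0.21 and with 5 of 16 libraries above 0, and inside NP and IAF cells it ranked 86 with 0.28. Ibsp, a bone matrix gene (-2.15), and Tnmd, a tendon gene (-1.97), were also below 0 in 16 of 16 libraries. Inside NP and IAF cells the lumican gene Lum moved to -0.02, Myoc to -0.11, Igfbp6 to -0.19, Tnmd to -0.28 and Col1a1 to -0.52. Igfbp5 moved from -2.07 to -0.39. Ibsp (-2.20), the alkaline phosphatase gene Alpl (-1.98) and Col10a1, the collagen of hypertrophic cartilage (-1.43), held the last places of the ranking inside these cells. Of the 14 listed genes known to act on Prg4 in joints, 9 were ranked. Creb5 (0.11), Foxo1 (-0.01), Nfatc1 (-0.02), Erg (0.14), Tgfb1 (0.04), Tgfbr1 (0.16) and Tgfa (-0.02) had ratios near 0, whereas Tgfbr2 (-0.28) was above 0 in 2 and Tgfb2 (-0.52) in 1 of 16 libraries. In NP and IAF cells alone Tgfbr2 stood at 0.00 and Tgfb2 at -0.13.

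Prg4 itself had no common direction between stabbed and uninjured discs, while Cytl1 and Cd55 were lower in the stabbed discs of every rat. The comparison addresses the needle stab, within the limit that the stabbed discs lay at other levels than the controls. The Prg4 level in CON rats 1 to 4 was 2448, 3225, 3186 and 2055 CPM, and in the LDP discs of the same rats 2950.4, 2909, 2677 and 2114 CPM. In rats 5 to 8 it was 2238, 2049, 4485 and 3875 CPM in CON and 2470.1, 2009, 4099 and 4206 CPM in LDP. LDP was higher in 2 of 4 rats at each time, and the mean log2 difference was -0.02 ± 0.23 at 2 weeks and 0.03 ± 0.13 at 8 weeks (SD over rats, n = 4). At 8 weeks rats 7 and 8 lay above rats 5 and 6 in both conditions.

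Cytl1 stood at 648, 1479, 1131 and 1278 CPM in CON rats 1 to 4 and at 514, 895, 848 and 827 CPM in their LDP discs. At 8 weeks it was 1226, 1267, 2477 and 2372 CPM in CON rats 5 to 8 and 1058, 1134, 790.0 and 1154 CPM in LDP. LDP was below CON in 8 of 8 rats, which was true of 8.18% of the 11572 genes tested. The mean log2 difference was -0.53 ± 0.18 at 2 weeks and -0.76 ± 0.71 at 8 weeks, where the rats ranged from -0.16 to -1.65 and the groups did not overlap (so it was, downwards, for 11.3% of genes). The thinned share of IVD cells with Cytl1 differed by -10.1 ± 5.24 percentage points at 2 weeks and by -12.7 ± 12.7 points at 8 weeks, or -7.33 points without rat 7.

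Cd55 stood at 80.0, 119, 118 and 133 CPM in CON rats 1 to 4 and at 64.1, 89.6, 86.1 and 37.5 CPM in LDP. At 8 weeks the values were 82.3, 163, 190.3 and 162 CPM in CON rats 5 to 8 and 39.3, 87.0, 134 and 82.0 CPM in LDP. It too was lower in LDP in 8 of 8 rats, by a mean log2 difference of -0.74 ± 0.71 at 2 weeks and -0.86 ± 0.24 at 8 weeks, with overlapping groups at both times. LDP rat 4 lay far below the rest at 2 weeks, with a log2 difference of -1.80 against -0.45 to -0.32 in the other rats. Summed over 4 markers, myeloid RNA in IVD cells was 21.5 to 76.6 CPM in CON and 40.9 to 68.5 CPM in LDP at 2 weeks, and 49.3 to 70.2 and 46.7 to 97.8 CPM at 8 weeks, and its part in Cd55 was not tested.

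Abi3bp was 3776, 3728, 4314 and 4654 CPM in CON rats 1 to 4 and 3473, 3858, 3683 and 2238 CPM in LDP. At 8 weeks it was 1898, 2353, 3006 and 3418 CPM in CON and 1489.6, 1691, 1345 and 2215 CPM in LDP. It was lower in LDP in 7 of 8 rats, with rat 2 the exception, by a mean log2 difference of -0.34 ± 0.49 and -0.65 ± 0.36, and 22.8% of genes were lower in at least 7 rats. Aqp3 went the other way in most rats, with 28.7, 52.8, 21.6 and 18.9 CPM in CON and 61.7, 48.5, 29.0 and 35.8 CPM in LDP at 2 weeks. Its 8-week levels were 34.9, 38.3, 99.7 and 53.6 CPM in CON and 75.9, 60.3, 72.9 and 56.5 CPM in LDP. Aqp3 was higher in LDP in 6 of 8 rats, with a mean log2 difference of 0.56 ± 0.54 and 0.34 ± 0.67, and its groups overlapped at both times. The lower Aqp3 level in LDP was that of rat 2 at 2 weeks and of rat 7 at 8 weeks. Single rats carried some of these means. Without rat 4 the 2-week mean log2 difference was -0.10 for Abi3bp and -0.39 for Cd55. Without rat 7 the 8-week mean was -0.47 for Cytl1 and 0.60 for Aqp3, and without rat 5 that of Aqp3 was 0.09.

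**Figure D5:**
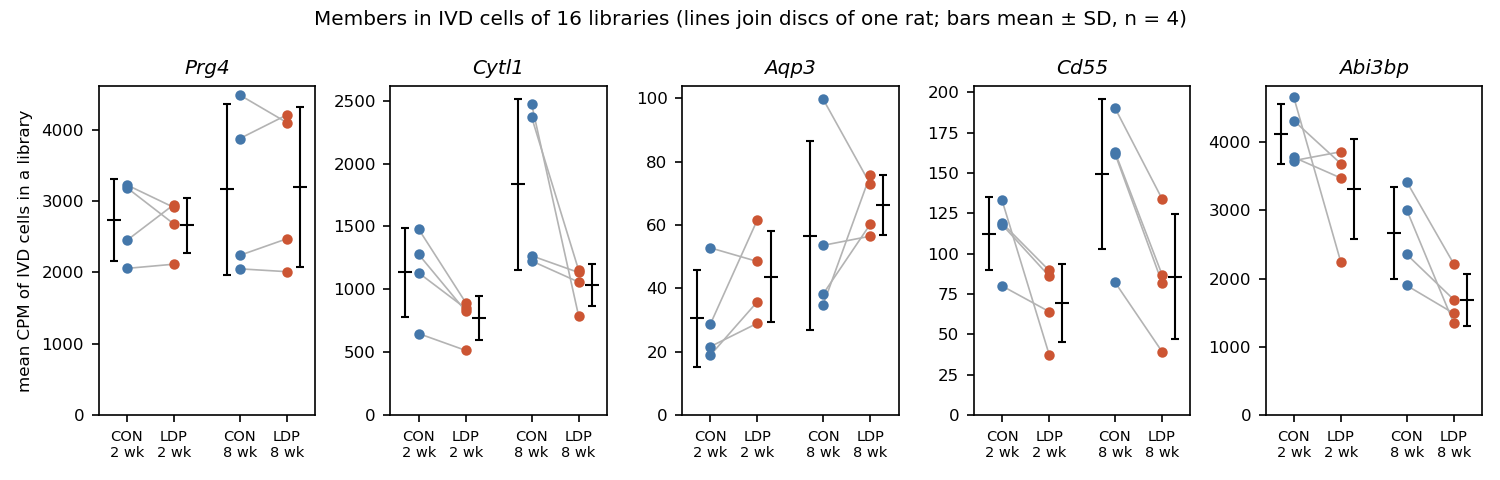
Mean CPM of the 5 members in IVD cells of each library, with a grey line joining the CON and LDP discs of one rat and bars at mean ± SD (n = 4). The lines of Cytl1 and Cd55 fall in 8 of 8 rats, those of Prg4 in 4 of 8, and Abi3bp is lower at 8 weeks than at 2 weeks in both conditions.

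Over all genes, the fit with limma called 0.181% at an adjusted p under 0.05 in LDP against CON at 2 weeks (21 of 11572, and 1331 at an unadjusted p under 0.05) and 0.259% at 8 weeks (30, and 2392 unadjusted). The shares were 0.199% and 0.251% with edgeR and 2.46% and 4.88% with DESeq2. The difference of the effects between the times was called for 0 genes (0% in limma and edgeR, 206 unadjusted in limma, and 0.112% or 13 with DESeq2). These shares are the background for the listed genes below, and no call is given for the 5 members in this contrast. Most genes were lower in LDP, with a median log2 difference over all genes of -0.08 at 2 weeks and -0.16 at 8 weeks, so a fall has to be read against that shift. The median percentage of ribosomal reads of IVD cells averaged 11.4% in CON and 12.9% in LDP libraries at 2 weeks and 13.8% and 15.8% at 8 weeks, and its part in these differences was not tested. Some marker sums in IVD cells were lower in LDP too, while others were higher. Among the higher ones, the mean osteoblast sum was 453 CPM in CON and 915 CPM in LDP at 2 weeks, and 616 and 708 CPM at 8 weeks. The mean NP sum was 1098 and 1276 CPM at 2 weeks and 1042 and 1199 CPM at 8 weeks. The summed level of the 4 fibroblast markers averaged 47.1 CPM in CON and 29.1 CPM in LDP at 2 weeks, and 31.4 and 14.1 CPM at 8 weeks, where the groups did not overlap. The mean OAF sum was 12766 and 9620.0 CPM at 2 weeks and 3448 and 1845 CPM at 8 weeks. The 8-week tendon sum was 27.0 to 80.5 CPM in CON and 15.4 to 25.8 CPM in LDP, while its 2-week mean was 195 and 214 CPM. The part of these cells in the lower levels of Cytl1, Cd55 and Abi3bp was not tested.

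At 2 weeks Cytl1 and Cd55 were lower in LDP in 4 of 4 rats within both NP and IAF cells. The share of OAF cells was 9.28% to 14.6% of IVD cells in CON and 6.29% to 16.4% in LDP. Over all IVD cells 14.1% of genes were lower and 8.46% higher in LDP in 4 of 4 rats at that time. Prg4 had a mean log2 difference of -0.16 ± 0.20 in NP cells and of 0.16 ± 0.21 in IAF cells, but with NP and IAF crossed in LDP these became 0.02 ± 0.32 and -0.01 ± 0.12, so no contrast between the regions was read. Cytl1 differed by -0.68 ± 0.10 in NP and by -0.36 ± 0.20 in IAF cells, and by -0.54 ± 0.13 and -0.50 ± 0.12 when crossed, lower in 4 of 4 rats either way. Cd55 differed by -0.78 ± 0.64 and -0.74 ± 0.79, and it too was lower in 4 of 4 rats when crossed. The crossed values were added after seeing the data. Aqp3 was higher in 4 of 4 rats in IAF cells (0.66 ± 0.30) and in 3 of 4 in NP cells (0.53 ± 0.62). In OAF cells Cytl1, Cd55 and Prg4 varied over rats by more than their mean difference, and Abi3bp was lower in 4 of 4 rats (-0.45 ± 0.37).

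Abi3bp fell between 2 and 8 weeks. The rule that chose the members names no comparison of the times, but it read the libraries of both times, and the choice was made with earlier results known. In CON discs all 4 levels at 8 weeks (1898 to 3418 CPM) were below all 4 at 2 weeks (3728 to 4654 CPM), as were, in this direction, 14.2% of genes. The log2 difference was -0.66 (SE 0.18), with an adjusted p of 0.0299 in limma, and 18.3% of genes passed that test, and 11.2% did so downwards. In LDP discs the levels were 1345 to 2215 CPM against 2238 to 3858 CPM, again without overlap (9.49% of genes), a log2 difference of -0.97 (SE 0.21) with an adjusted p of 0.0351 in limma, which 4.30% of genes passed, 3.25% downwards. The share of IVD cells with an Abi3bp UMI at 1000 UMIs was 86.0% ± 3.28 and 68.7% ± 7.58 in CON at 2 and 8 weeks, and 78.6% ± 7.00 and 61.6% ± 6.00 in LDP. Both calls depend on few libraries: leaving out 1 rat at a time, the adjusted p rose above 0.05 without rat 1, 3, 4, 5 or 6 in CON (up to 0.0771) and without rat 1, 2, 3, 5, 6 or 7 in LDP (up to 0.108), with log2 differences of -0.79 to -0.50 and -1.15 to -0.87. In CON the call was also lost with edgeR (adjusted p = 0.0727), and with all cells in place of IVD cells it was lost in both (limma adjusted p = 0.0944 and 0.173).

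Of the other members, Aqp3, Cytl1 and Cd55 did not pass in either condition. Aqp3 had log2 differences of 0.86 (SE 0.36, limma adjusted p = 0.117) in CON and 0.64 (SE 0.23, 0.135) in LDP. For Cytl1 they were 0.68 (SE 0.30, 0.134) and 0.44 (SE 0.20, 0.230), for Cd55 0.36 (SE 0.25, 0.320) and 0.25 (SE 0.37, 0.723), and for Prg4, whose shares at both times the rule used and which is given without a test, 0.16 and 0.20. All 4 had positive differences where Abi3bp fell, but that of Prg4 in CON turned to -0.04 without rat 7 and that of Cd55 in LDP to -0.01 without rat 4. In CON, Aqp3 passed without rat 2 (limma adjusted p = 0.0308) and Cd55 without rat 5 (limma adjusted p = 0.0408). With DESeq2, which called 26.7% of genes in CON and 12.2% in LDP (edgeR 21.2% and 4.05%), Cytl1 in CON and Aqp3 in LDP passed as well.

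The share of IVD cells with Prg4 overlapped between the times in both conditions, and it is given as a description because it was among the values that chose the members. It was 58.2% ± 10.3 at 2 and 50.2% ± 11.5 at 8 weeks in CON, a difference of -8.00 percentage points. In LDP it was 57.9% ± 6.31 and 57.2% ± 8.58, a difference of -0.631 points. Prg4-positive cells held on average 4.14 to 5.39 thinned Prg4 UMIs in CON at 2 weeks and 4.64 to 7.55 at 8 weeks.

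The times differ in more than these genes. They were different rats of different age, so time since surgery, age and any batch of the libraries cannot be told apart. The summed level of 6 OAF markers in IVD cells was 8681 to 15017 CPM in CON and 6663 to 13307 CPM in LDP at 2 weeks, and 2388 to 4268 CPM and 1012 to 2751 CPM at 8 weeks, when no subclusters are given, and its part in the fall of Abi3bp was not tested. Abi3bp was itself lower in OAF than in NP cells at 2 weeks. The sum of the 5 disc markers (Acan, Col2a1, Sox9, Comp and Fmod) was lower at 8 weeks as well, without overlap. It was 19557 to 28739 CPM at 2 weeks and 9031 to 13591 CPM at 8 weeks in CON. In LDP it was 17210.0 to 27266 and 9290.2 to 11423 CPM. Sox9 did not follow the sum. In LDP it was higher at 8 weeks, at 407 to 542 CPM at 2 weeks and 549 to 888 CPM at 8 weeks. In CON its values overlapped, at 589 to 919 and 681 to 1019 CPM. The part of the sum in the fall of Abi3bp was not tested either.

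Genes known to act on Prg4 or to share its surroundings were read from lists. Of the 14 regulators of Prg4, 13 were tested and 0 passed in LDP against CON at either time in limma (3 and 6 at an unadjusted p under 0.05, 0 with edgeR, and 0 and 1 with DESeq2). In CON at 8 against 2 weeks 1 rose and 3 fell (limma, adjusted p under 0.05), where 7.15% of all genes rose and 11.2% fell, and in LDP 0 rose and 1 fell, where 1.05% rose and 3.25% fell. The ETS factor gene Erg fell in CON from 30.2 to 53.9 CPM at 2 weeks to 18.3 to 24.4 CPM at 8 weeks, a log2 difference of -0.89 (SE 0.17, limma adjusted p = 0.00664). In LDP it fell by 0.86 (SE 0.19, limma adjusted p = 0.0375). The mean sum of endothelial markers in IVD cells was also lower at 8 weeks, 224 and 108 CPM in CON and 138 and 73.0 CPM in LDP. Its part in the fall of Erg was not tested. In CON the TGF-beta receptor gene Tgfbr1 rose by 0.34 (SE 0.09, limma adjusted p = 0.0308). Tgfbr2 fell in CON by 0.33 (SE 0.09, limma adjusted p = 0.0311) and Egfr by 0.66 (SE 0.16, limma adjusted p = 0.0203). The median of the 13 was 0.12 in CON and -0.02 in LDP, against -0.02 and -0.09 over all genes.

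Hyaluronan lubricates together with lubricin, and the listed genes that make, bind or degrade it moved in both directions with time. Of 8 tested, 3 rose and 2 fell in CON (7.15% and 11.2% of all genes), and 0 rose and 1 fell in LDP (1.05% and 3.25%). The synthase gene Has1 rose from 6.82 to 13.5 CPM to 15.6 to 23.5 CPM in CON (log2 difference 1.02, SE 0.19, limma adjusted p = 0.00701), and Has3 (0.64, adjusted p = 0.0128) and the hyaluronidase gene Cemip (0.57, adjusted p = 0.0101) rose with it. Has2 fell by 0.69 in CON (limma adjusted p = 0.0488) and by 1.12 in LDP (limma adjusted p = 0.0299), and Hyal1 fell by 0.70 in CON (limma adjusted p = 0.00634). Has3 and Hyal1 were close to the filter of 1 CPM. In CON, Has3 stood at 1.82 to 2.49 CPM at 2 weeks and 2.99 to 4.30 CPM at 8 weeks, and Hyal1 at 2.42 to 3.72 and 1.35 to 1.52 CPM. With injury 0 of 8 passed in limma (1 at 2 weeks and 3 at 8 weeks unadjusted, 0 with edgeR, and 0 and 1 with DESeq2). The most abundant of them, Tnfaip6, had log2 differences of 0.29 (SE 0.23) at 2 weeks and 0.24 (SE 0.23) at 8 weeks.

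Among genes of the joint surface and its lining, those that passed between the times all fell. Of 12 listed genes 11 were tested, and 0 rose and 5 fell in CON (7.15% and 11.2% of all genes) and 0 rose and 3 fell in LDP (1.05% and 3.25%). The summed level of 3 tendon markers in IVD cells was also lower at 8 weeks, 109.8 to 240.4 CPM at 2 weeks and 27.0 to 80.5 CPM at 8 weeks in CON and 87.3 to 313 and 15.4 to 25.8 CPM in LDP, as was the sum of OAF markers given above, and their part in these falls was not tested. Cilp2 fell from 1178 to 1552 CPM to 565 to 830.3 CPM in CON (log2 difference -0.96, SE 0.15, limma adjusted p = 0.00328) and by 1.24 in LDP (adjusted p = 0.0112). Tnc and Mfap5 fell by 1.37 and 1.64 in CON and by 1.84 and 1.34 in LDP, and Dkk3 and Vcam1 fell in CON by 0.55 and 0.79. Vcam1 was close to the filter of 1 CPM, at 1.51 to 3.45 CPM at 2 weeks and 0.635 to 1.36 CPM at 8 weeks in CON. Tnc, which encodes tenascin-C, and Mfap5, which encodes a microfibril protein, were low in cells with Prg4 (log2 ratios -1.86 and -0.41), but in NP and IAF cells alone the ratios were -0.41 for Tnc and 0.39 for Mfap5. In LDP against CON 0 of 11 passed in limma (2 and 5 unadjusted, 0 with edgeR, and 0 and 3 with DESeq2), and Clu, the most abundant, had log2 differences of -0.07 (SE 0.19) and -0.27 (SE 0.19).

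Among aquaporins, Aqp1 was the one of 7 listed genes besides Aqp3 with enough RNA to be tested. Aqp1 fell by 1.17 on the log2 scale with time in CON (SE 0.36, limma adjusted p = 0.0458) and by 2.32 in LDP (SE 0.34, adjusted p = 0.00869), where Aqp3 had positive differences. In CON the Aqp1 call was lost with edgeR (adjusted p = 0.0546). The sum of 4 endothelial markers in IVD cells went from 173 to 335 CPM to 94.5 to 114 CPM in CON and from 77.0 to 207 to 58.8 to 88.4 CPM in LDP, and its part in the fall of Aqp1 was not tested. In LDP against CON, Aqp1 did not pass in limma, with -0.72 (SE 0.37, limma adjusted p = 0.469) at 2 weeks and -1.87 (SE 0.37, limma adjusted p = 0.0733) at 8 weeks. It did not pass with edgeR either, but it passed with DESeq2 at 8 weeks, where DESeq2 called 4.88% of genes. Aqp1 stood low in IVD cells with Prg4, at a log2 ratio of -1.13, but at -0.02 in NP and IAF cells alone. Of the 6 complement regulators listed beside Cd55, 4 were tested and 0 passed in limma in any comparison (0 and 1 unadjusted in LDP against CON at 2 and 8 weeks, 2 and 1 in CON and LDP over time, 0 with edgeR, and 1 with DESeq2). Serping1, which encodes the C1 inhibitor and was named after its values were seen, had log2 differences of -0.05 (SE 0.17) at 2 weeks and -0.01 (SE 0.17) at 8 weeks in LDP against CON. Of the 12 genes most like Prg4 that are no members, 1 passed in limma in any comparison. This was Vcan, which fell by 0.84 with time in CON (SE 0.24, limma adjusted p = 0.0373), where 18.3% of all genes passed.

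Several of these calls over time rest on single libraries. In CON, leaving out 1 rat ended the call of Tgfbr1 (rat 1, 3, 4, 5, 7 or 8), Tgfbr2 (rat 1, 3, 4, 5 or 6), Egfr (rat 3 or 5), Has2 (rat 1, 3, 4, 5, 6, 7 or 8), Vcam1 (rat 1, 3 or 6), Aqp1 (rat 1, 2, 3, 6, 7 or 8) and Vcan (rat 1, 2, 3, 4, 5 or 6). In LDP it ended that of Erg (each rat but rat 4), Has2 (rat 1, 3, 5, 7 or 8), Mfap5 (rat 6 or 7) and Tnc (rat 1, 2, 3, 6 or 7). The calls of Erg, Has1, Has3, Cemip, Hyal1, Cilp2, Tnc, Mfap5 and Dkk3 in CON and of Cilp2 and Aqp1 in LDP held without any 1 rat, and their directions were the same in all alternatives run. With edgeR the CON calls of Tgfbr2 (adjusted p = 0.0653) and Vcan (adjusted p = 0.0833) were lost too, and that of Tgfbr2 also with DESeq2 (adjusted p = 0.0560). With all cells in place of IVD cells Egfr, Tgfbr1, Has2, Has3, Dkk3 and Vcan in CON and Has2, Cilp2, Mfap5, Tnc and Aqp1 in LDP no longer passed. The CON calls of Has2 and Aqp1 were also lost with a pseudocount of 10 CPM and with no filter.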

How the data were processed

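The authors made 10x Genomics single-cell libraries (Illumina NovaSeq), processed them in Partek on the rat build rn6 (the aligner is not given in the sources used here) and deposited, per library, the log2(CPM + 1) value of each gene in each cell, with the cell's total as an estimated count, the count of expressed genes, the percent of mitochondrial and ribosomal reads and cell classes. Multiplying CPM by the cell total gave whole counts within 0.02 for 99.4% to 99.5% of values. These were thinned to 1000 UMIs per cell for shares and odds ratios (0.5 added to each count).

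The unit of each comparison was the library. Mean CPM of IVD cells was compared as log2(CPM + 1) with limma 3.58.1 (R 4.3.3, trend, Benjamini-Hochberg over 11572 genes with at least 1 CPM in 4 libraries), with the rat as a block for injury. CON and LDP discs came from the same rats, and libraries were matched to a rat by the equal number in their sample titles. Deviations of libraries so matched correlated by -0.18 to 0.45, those of different rats by -0.32 to 0.25. These ranges overlap, so the correlations do not settle the match. Alternatives were edgeR 4.0.16 and DESeq2 1.42.0 on summed rounded counts, other pseudocounts, no filter, no block, all cells, other thinning, crossed LDP subclusters and leaving out each rat. For a check of power, log2 values of 11572 genes were simulated from the spread of each fit, with 200 genes changed by a log2 difference of 1. Of these limma recovered 89.0% and 87.0% in LDP against CON at 2 and 8 weeks and 43.0% in the difference of these effects. Over time it recovered 97.5% in CON and 76.0% in LDP. The changed genes were drawn from the more abundant ones, with independent noise and no other effects, so recovery in the real data can be lower.

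The 5 members and the 5 gene lists were chosen with earlier results of these data known. Named were the members, the list genes past an adjusted p of 0.05 (otherwise the most abundant) and the 15 genes most like Prg4 by the ratio with 0.01 added to both means; low-ranked genes, from marker lists, were named after their values were seen. The IVD cells of a library held 13099257 to 79741504 UMIs. Doublets were not called here. Each library is 1 pool of 2 discs, so the spread is that between rats. Some genes that the naming rule covers are not reported here.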

Additional observations from a re-analysis of the deposited data

Results flagged for a closer look

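Among 50 sets of 4 values checked for the 5 members (levels, shares and LDP minus CON differences), 2 held a value far from the other 3, and chance gives about 1 in 20 such sets. The thinned share of IVD cells with Cytl1 was 28.6% in CON rat 1, against 46.2% to 49.8% in the other CON rats at 2 weeks. The Cd55 difference between LDP and CON was -1.80 on the log2 scale in rat 4, against -0.45 to -0.32 in the other rats at 2 weeks, with 133 CPM in its CON and 37.5 CPM in its LDP library. Of the 37 listed genes tested for a difference of the injury effect between the times, 0 passed in limma.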

How the results depend on the processing

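Counts of genes past an adjusted p of 0.05 moved by more than 1.5 times under several alternatives. LDP against CON at 2 weeks gave 21 genes (16 higher, 5 lower), 10 with no replicate block, 3 with a pseudocount of 10 CPM, 285 with DESeq2, 0 with all cells, and 0 to 7 when 1 rat was left out (7 without rat 3). At 8 weeks it gave 30, 81 with a pseudocount of 0.1 CPM, 565 with DESeq2, 1 with all cells, and 1 (without rat 7) to 529 (without rat 4). The difference of the effects gave 0, 2 with a pseudocount of 0.1 CPM, 13 with DESeq2, 3 without the replicate block, and 0 to 13 (without rat 3). Over time the CON count of 2119 ranged from 1112 to 2433 without 1 rat, and the LDP count of 498 became 1412 with DESeq2, 22 with all cells and 159 (without rat 7) to 1554 (without rat 4).

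The time difference in the Prg4 share was -11.1 to -2.76 points in CON without 1 rat. In LDP it reversed to 1.07 points with 2 UMIs or more, 0.919 without rat 1, 0.387 without rat 2 and 3.42 without rat 6, with a lowest of -3.72 (without rat 4). The single-gene differences over time that turned were Prg4 in CON (-0.04 without rat 7, to 0.34 without rat 6) and Cd55 in LDP (-0.01 without rat 4, -0.00 without rat 7, to 0.58 without rat 5). Without the replicate block 0 of the listed genes passed in LDP against CON at either time, as with it. All 70 alternatives for member levels between LDP and CON stayed within 1 SD over rats. For member shares 7 of 80 moved by more than 1 SD, as did 9 of 20 for the ratios between subclusters, where shares replaced levels. The 70 and the 80 include leaving out each rat, which cannot move a mean of 4 rats by 1 SD. That part could not fail, so these counts say nothing on the weight of single rats. For joint detection 16 of 50 moved. With all UMIs kept the odds ratios were higher, 2.50 for Prg4 and Abi3bp and 1.77 for Prg4 and Cytl1. The causes of these shifts were not tested. Depth limits Aqp3, found in 1.90% to 7.97% of thinned IVD cells.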

Other observations

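Cells that the annotation left unnamed also held the members. Thinned to 1000 UMIs, 0.901% to 69.6% of the unnamed cells of a library had a Prg4 UMI (median of 16 libraries 11.1%), 0% to 38.6% a Cytl1 UMI and 2.70% to 82.6% an Abi3bp UMI. Aqp3 was in up to 8.70% and Cd55 in up to 27.0% of them. These cells entered no comparison between groups other than the alternative with all cells.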
